A study of Mus musculus with 6 samples.

Results

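Podocytes are the epithelial cells that wrap the capillaries of the kidney glomerulus, and the 7 genes described here encode proteins known from these cells. Neighbouring foot processes of podocytes are joined by the slit diaphragm, a sheet of cell adhesion proteins in which nephrin (Nphs1) and its relative NEPH1 (Kirrel) are central. The scaffold proteins CD2AP (Cd2ap) and MAGI-2 (Magi2) tie it to actin filaments, which alpha-actinin-4 (Actn4) crosslinks and synaptopodin (Synpo) organises. Podocytes also secrete VEGF-A (Vegfa), the growth factor that glomerular endothelium needs. Wt1, which encodes a zinc finger transcription factor, stays active in podocytes throughout life, and the podocytes of the permanent kidney form later in development than the stage studied here. The members were taken as every probe whose gene symbol in the array's annotation is one of the 7 names. This gave 5 of the 20289 probes, 1 each for Nphs1, Synpo, Actn4, Kirrel and Vegfa. Cd2ap and Magi2 had no probe under these symbols and were not analysed here.

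RNA came from urogenital ridges taken from E11.5 mouse embryos. The ridge is the strip of embryonic tissue that gives rise to the gonad and holds the mesonephros. Wt1 knockout embryos of the Mf1 strain, homozygous for a Wt1 deletion, were set against Mf1 wild-type embryos, with 3 single-colour CodeLink arrays per genotype. Each array is described as holding RNA pooled from the ridges of 5 embryos at 11 to 12 tail somites, of which 4 were female and 1 was male. The description gives 5 embryos per genotype, measured 3 times, without saying whether pools were separate, so the replicate spread behind the p-values may be technical. Every value below is a deposited spot intensity on a linear scale, and changes are log2 differences, knockout minus wild type.

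The deleted gene, Wt1, was lower in the knockout. Its brighter probe (2836) read 14.3, 15.7 and 14.2 on the knockout arrays and 44.1, 43.6 and 39.1 on the wild-type arrays. The log2 change was -1.52 ± 0.08 (SE), with adjusted p = 1.13e-07 in limma's moderated test. The position of the probes relative to the deletion is not given in the sources used here. Across the array 41.3% of the 15062 tested probes passed adjusted p under 0.05, 24.1% as higher and 17.2% as lower. The median log2 change of all tested probes was 0.09.

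Of the 5 member probes, 4 were bright enough to test. Actn4 and Vegfa were lower in the knockout by about the same step, Synpo and Kirrel did not pass, and Nphs1 lay below the limit for testing on every array. The 2 decreases make up 50% of the tested members, beside 17.2% of all tested probes, in a set of only 4. No member passed as higher at adjusted p under 0.05 in limma, where 24.1% of all tested probes did. The members higher at an unadjusted p under 0.05 were also 0. The median log2 change of the 4 was -0.31. In pooled tissue, fewer cells of a type and less RNA per cell cannot be told apart.

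**Figure D1:**
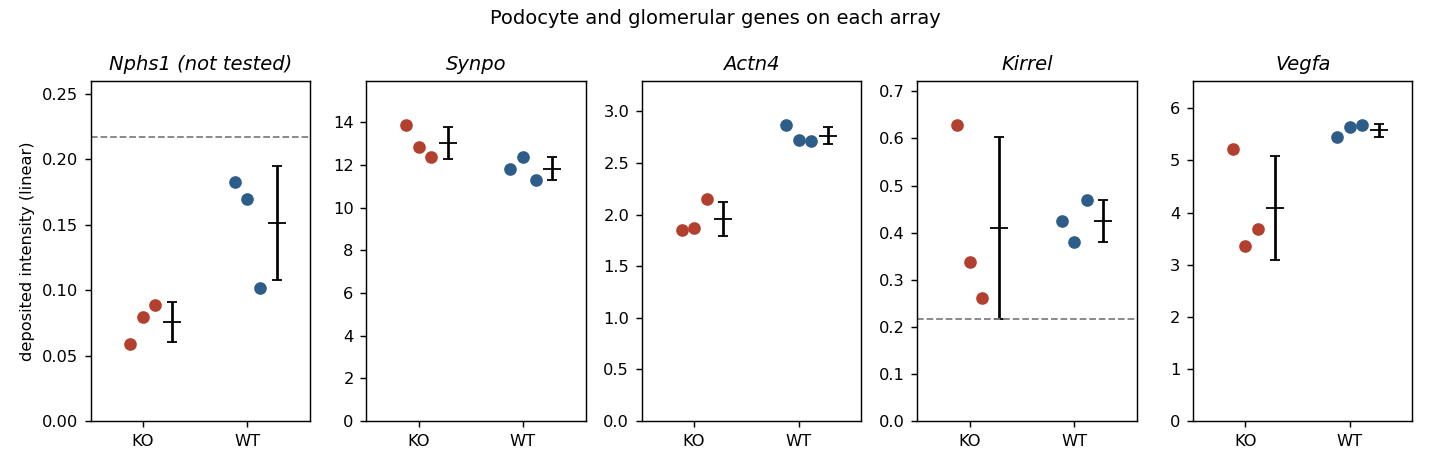
Deposited intensity (linear scale, from 0) of the 5 member genes on the 3 Wt1 knockout (KO) and 3 wild-type (WT) arrays. Points are arrays, black marks are means with SD, and the dashed line is the limit for testing, an intensity of 0.217, drawn where it falls near the values. The knockout arrays lie below all wild-type arrays for Nphs1, Actn4 and Vegfa and overlap them for Synpo and Kirrel.

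Nephrin, the protein encoded by Nphs1, is the defining component of the slit diaphragm, and Nphs1 is a known target of WT1 in podocytes. Its probe (13994) read 0.0588, 0.0798 and 0.0885 on the knockout arrays, against 0.183, 0.170 and 0.102 on the wild-type arrays. The knockout arrays were all below the wild-type arrays, yet all 6 values were under the limit of 0.217 below which probes were not tested. Of 5015 probes too dim to test, 2.23% likewise had every knockout value below every wild-type value. Both genotype means lay under the limit, so no fold is given. With the filter on dim probes removed, the log2 change of -0.81 had adjusted p = 0.220 (limma).

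The probe of Kirrel (17456), which encodes the nephrin-binding protein NEPH1, read 0.628, 0.339 and 0.262 on the knockout arrays and 0.424, 0.380 and 0.469 on the wild-type arrays. The genotypes overlapped, with knockout array 1 the highest of the 6 and knockout arrays 2 and 3 the lowest. The means were 0.409 ± 0.193 in the knockout and 0.424 ± 0.0440 in wild type (SD, n = 3 each). The log2 change was -0.15 (95% interval -0.85 to 0.56, adjusted p = 0.743 in limma), an interval that holds changes of either sign. Without knockout array 1 it was -0.51 (adjusted p = 0.191), and without knockout array 3 it was 0.13.

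Synaptopodin, the actin-associated protein encoded by Synpo, is found in podocyte foot processes and in the dendritic spines of neurons. Synpo (probe 5306) read 13.9, 12.8 and 12.4 on the knockout arrays, against 11.8, 12.4 and 11.3 on the wild-type arrays. The lowest knockout array and the highest wild-type array had almost the same value. The log2 change was 0.14 (95% interval -0.02 to 0.30), with adjusted p = 0.158 in limma. Its size was small among the tested probes, 76.2% of which had a larger one. Most neuronal markers were higher in the knockout, while Synpo was not called. Of 10 tested genes on that marker list 9 were higher and none lower (limma, 0 lower also at an unadjusted p under 0.05). Over all tested probes 24.1% were higher and 17.2% lower. The summed intensity of the neuronal markers was 68.6 to 71.3 in the knockout and 35.9 to 37.1 in wild type. Their part in the Synpo values was not tested.

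Alpha-actinin-4, encoded by Actn4, crosslinks actin filaments in podocytes and in many other non-muscle cells. Its probe (14837) read 1.85, 1.87 and 2.15 on the knockout arrays and 2.87, 2.72 and 2.71 on the wild-type arrays. The genotypes did not overlap. Actn4 averaged 1.96 ± 0.166 in the knockout and 2.77 ± 0.0855 in wild type (SD, n = 3 each). Its signal was thus 1.42-fold lower, at a log2 change of -0.50 ± 0.09 (SE, adjusted p = 0.00105, limma). Of all tested probes with values on every array, 52.8% had no overlap between the genotypes and 21.4% had their knockout arrays below all wild-type arrays. A change of larger size, in either direction, was seen at 26.5% of the tested probes.

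Vegfa, the VEGF-A gene, was lower in the knockout by a similar amount but far less evenly. Its probe (11260) read 5.23, 3.35 and 3.69 on the knockout arrays, against 5.44, 5.63 and 5.67 on the wild-type arrays. Knockout array 1 was just under the wild-type range, and the other knockout arrays were well below it. The means were 4.09 ± 1.0 in the knockout and 5.58 ± 0.124 in wild type (SD, n = 3 each), and the log2 change was -0.48 ± 0.14 (SE), a 1.39-fold lower signal with adjusted p = 0.0144 (limma). The log2 values of Vegfa had an SD of 0.34 among knockout arrays and 0.032 among wild-type arrays, where the medians over tested probes were 0.15 in the knockout and 0.095 in wild type. Without knockout array 1 the log2 change was -0.67 (adjusted p = 1.42e-06). The call ended when knockout array 2 or 3 or wild-type array 2 or 3 was left out, at adjusted p of 0.0524, 0.0515, 0.0504 and 0.0591, and without an intensity trend in the variance prior (adjusted p = 0.0755).

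Knockout array 1 stood apart from its own group at more probes than any other array did. At 3.8% of 15019 probes it lay at least 1.5-fold from both other knockout arrays, which were within 1.2-fold of each other. The same share was 2.3% for knockout array 2, 2.22% for knockout array 3 and 1.25% to 1.37% for the wild-type arrays. Neither the Vegfa nor the Kirrel probe met this rule. Over the log2 values of all probes the 3 pairs of knockout arrays correlated alike, at r = 0.974 to 0.9745. The part of any difference of knockout array 1 in the Vegfa and Kirrel values was not tested.

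The genes whose log2 values followed a member most closely over the 6 arrays were found by Pearson's r among 11867 named, tested probes, as a description in which all points share the same 6 hybridisations. For Vegfa these were Mrpl32, a mitochondrial ribosomal protein gene (r = 0.998), and Amacr, which encodes alpha-methylacyl-CoA racemase (r = 0.997). Amacr showed the same uneven knockout values, 4.06, 1.63 and 1.90, against 4.28, 4.46 and 4.32 on the wild-type arrays. For Actn4 they were Letmd1 (r = 0.997) and Maea (r = 0.996), both lower in the knockout with log2 changes of -0.77 and -0.70. Dach2 and Grm2 were closest to Synpo (r = 0.994 and 0.990), and the coagulation factor VIII gene F8 and Ccdc69 to Kirrel (r = 0.994 and 0.985).

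The sequence upstream of the start is shown for the members that were lower, Actn4 and Vegfa, as the 250 bases before the start on the minus strand of GRCm38.p6 (RefSeq), chr7:28962333-28962582 and, for the upstream of 2 annotated Vegfa starts, chr17:46032378-46032627. Capitals mark the GC box GGGCGG on either strand, which the SP1 factor binds and which was chosen after the windows had been read.
Actn4: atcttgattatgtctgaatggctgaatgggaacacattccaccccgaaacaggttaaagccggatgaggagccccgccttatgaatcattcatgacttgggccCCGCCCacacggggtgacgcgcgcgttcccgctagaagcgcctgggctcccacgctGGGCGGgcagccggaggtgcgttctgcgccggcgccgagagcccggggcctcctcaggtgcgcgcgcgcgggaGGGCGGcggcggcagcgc
Vegfa: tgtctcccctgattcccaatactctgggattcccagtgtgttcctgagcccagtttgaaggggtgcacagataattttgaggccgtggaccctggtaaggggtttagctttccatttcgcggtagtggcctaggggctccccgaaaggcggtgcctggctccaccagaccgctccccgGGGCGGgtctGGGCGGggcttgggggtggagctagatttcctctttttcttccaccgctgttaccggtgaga
The Actn4 window held the GC box 3 times and this Vegfa window 2 times, and 32.7% of 32851 such windows held it at least once. It was also found in the window of the other Vegfa start and in a window of Magi2, but in none of Nphs1, Kirrel or Cd2ap. Neither window held GCGGGGGCG or GCGTGGGCG, sites of the EGR and WT1 family that 2.57% and 0.536% of all windows held, nor the longer WT1 response element known as WTE (0.0517%). The same 3 motifs were also missing from the windows of Nphs1, Kirrel, Cd2ap and Magi2, and from that of the second Vegfa start. The core ACGTG of the hypoxia response element was found once, in the window of that second Vegfa start, and in 16.6% of all windows. All motifs were searched on both strands, and the GC box can overlap the end of GCGGGGGCG. These matches describe letters and say nothing of binding.

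Close relatives of the actin and scaffold members changed in both directions. Of 7 relatives of synaptopodin, the actinins and MAGI-2, 4 were tested, 2 higher and 2 lower. These are 50% each, in a set of only 4, beside 24.1% higher and 17.2% lower of all tested probes. Synpo2l, a synaptopodin relative of striated muscle, was the larger gain and read 3.62, 4.48 and 4.20 in the knockout and 0.648, 0.716 and 0.705 in wild type. Its log2 change was 2.57 ± 0.11 (SE, adjusted p = 2.52e-08, limma). Synpo2 rose by a log2 change of 0.61 (adjusted p = 0.000898), and its second probe, at 0.35, did not pass (adjusted p = 0.0758). The muscle actinin gene Actn3 fell by 0.40 on the log2 scale (adjusted p = 0.00943), a call that ended without wild-type array 3 (adjusted p = 0.0525). Magi3 fell by 0.40 (adjusted p = 0.0195), a call that ended without knockout array 3 or wild-type array 1 or 2 (adjusted p up to 0.101). Actn2, of the muscle Z disc, read 0.297, 0.311 and 0.363 in the knockout and 0.175, 0.0811 and 0.108 in wild type and was too dim to test. Most skeletal muscle markers, a list that also holds Actn2, were higher in the knockout, unlike Actn3 and Magi3. Of 8 tested, 6 were higher and none lower (limma, 0 lower also at an unadjusted p under 0.05), beside the same 24.1% and 17.2%. The summed intensity of these markers was 20.0 to 21.4 in the knockout and 6.64 to 7.36 in wild type. Their part in the Synpo2l values was not tested.

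Other genes of the slit diaphragm and the podocyte surface included calls in both directions. Of 17 listed, 10 were tested, of which 2 were higher and 3 lower, with a median log2 change of -0.20. These are 20% higher and 30% lower, beside 24.1% and 17.2% of all tested probes, and without knockout array 1 there were 4 higher and 3 lower. Trpc6, a cation channel gene of the slit diaphragm, fell to 1.12, 0.799 and 0.758 in the knockout, against 1.51, 1.504 and 1.39 in wild type (log2 change -0.74, adjusted p = 0.00207, limma). Prkci, the atypical protein kinase C of the polarity complex, fell by 0.67 on the log2 scale (adjusted p = 5.78e-05). Plce1, a phospholipase C gene, fell by 0.54 on its main probe (adjusted p = 0.0223), which passed neither without knockout array 2 nor without wild-type array 1 or 3, and its second probe had a log2 change of 0.18 (adjusted p = 0.60). The probes of the scaffold gene Cask disagreed. Its brightest was higher by 0.66 (adjusted p = 3.62e-05), while a dimmer one was lower by a log2 change of -1.62 and the third did not pass. Podxl, which encodes the podocyte surface sialomucin podocalyxin, averaged 0.0697 ± 0.124 in the knockout and 0.115 ± 0.0560 in wild type (SD, n = 3 each) and was too dim to test.

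Among adaptors and regulators of podocyte actin, 17 of 22 listed genes were tested, with 3 higher, 4 lower and 10 that did not pass. The share called, 41.2%, was near the 41.3% of all tested probes. Cfl1, which encodes the actin-severing protein cofilin, fell by 1.48 on the log2 scale to 15.9, 13.6 and 14.9 in the knockout, against 39.2, 39.6 and 45.7 in wild type (adjusted p = 3.16e-07, limma). Ezr, the gene of the membrane-actin linker ezrin, fell by 0.78 (adjusted p = 7.12e-06), and Nck2, an adaptor that binds phosphorylated nephrin, fell by 0.53 (adjusted p = 0.00871). Sh3kbp1, the closest relative of Cd2ap, rose instead. It read 27.9, 34.0 and 31.5 in the knockout and 15.9, 17.2 and 16.0 in wild type, a log2 change of 0.92 (adjusted p = 7.49e-06). Without knockout array 1 this list had 6 genes higher and 5 lower.

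**Figure D2:**
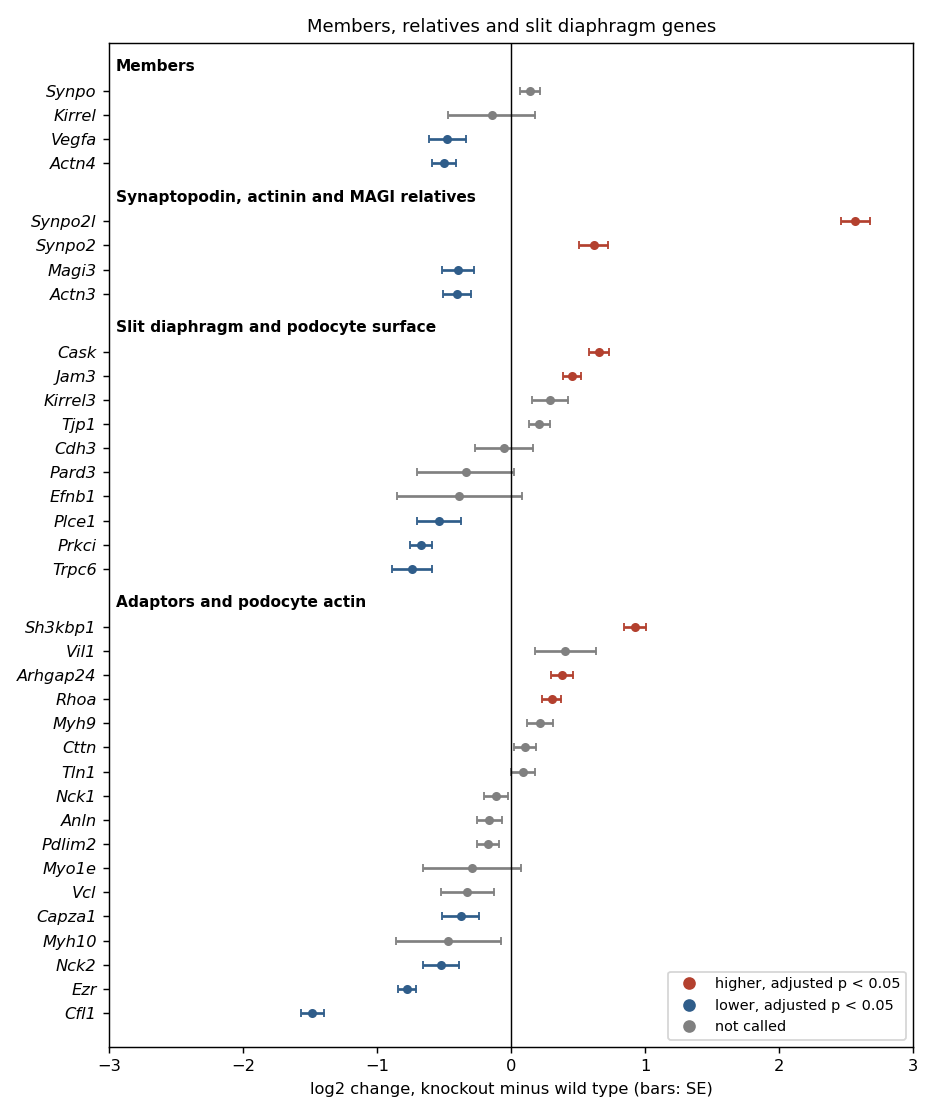
Log2 change (knockout minus wild type, bars SE) of the tested members, of their relatives and of listed slit diaphragm, adaptor and actin genes, 1 brightest probe per gene. Red marks genes called higher, blue genes called lower at adjusted p under 0.05, grey genes not called. Actn4 and Vegfa sit near -0.5, and the listed genes spread to both sides of 0, from -1.48 for Cfl1 to 2.57 for Synpo2l.

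Among transcription factors of the podocyte lineage, 7 were tested, of which 3 were lower, including the deleted gene Wt1, and 2 were higher. These are 42.9% lower and 28.6% higher, beside 17.2% and 24.1% of all tested probes. Under quantile and under cyclic loess normalization 4 were lower and 1 was higher, with Foxc2 no longer called higher and Foxc1 called lower. Hey1, a Notch target gene, fell by 1.29 on the log2 scale to 1.41, 1.42 and 1.36 in the knockout, against 3.47, 3.54 and 3.24 in wild type (adjusted p = 9.76e-07, limma). Tcf21, which encodes the podocyte and mesenchyme factor TCF21, rose by 0.38 (adjusted p = 0.000843). Foxd1, a stromal transcription factor gene, read 15.2, 4.97 and 4.62 in the knockout and 13.7, 16.5 and 16.9 in wild type. Knockout array 1 lay within the wild-type range and the other 2 far below it. Vegfa likewise had its highest knockout value on that array, though under the wild-type range. The Foxd1 call (log2 change -1.15, adjusted p = 0.0172) ended in 6 settings, including without knockout array 2 or 3 and without wild-type array 2 or 3, at adjusted p up to 0.179.

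Of 8 other tested ligands and receptors of the VEGF system, 3 were higher, 1 was lower and 4 did not pass. The shares were 37.5% higher and 12.5% lower, beside 24.1% and 17.2% of all tested probes. Under quantile normalization 2 were higher and 1 was lower, and under cyclic loess 2 and 2. Vegfc, the ligand of lymphatic endothelium, read 6.74, 6.07 and 5.53 in the knockout and 3.51, 3.18 and 3.59 in wild type, a log2 change of 0.83 (adjusted p = 3.19e-05, limma). The co-receptor genes went opposite ways, with Nrp2 higher by a log2 change of 0.87 (adjusted p = 4.21e-05) and Nrp1 lower, at -0.57 (adjusted p = 0.000122). Kdr, the main VEGF-A receptor gene of endothelium, was higher by 0.25 (adjusted p = 0.0127), and this call ended under quantile and cyclic loess normalization and without wild-type array 2 (adjusted p up to 0.740). Vegfb, Vegfd, Pgf and Flt4 had log2 changes of -0.19, 0.34, -0.10 and -0.06 and did not pass, and Flt1 was too dim to test. Of 7 tested endothelial markers 4 were lower and 1 higher, beside 17.2% and 24.1% of all tested probes. The lower ones were Pecam1, Emcn, Tek and Cldn5, with log2 changes of -1.32, -0.82, -0.72 and -0.43. The summed intensity of the list was 81.3 to 83.4 in the knockout and 82.1 to 85.9 in wild type, a sum in which Kdr is the brightest gene, at 36.3 to 38.8 in the knockout and 30.5 to 32.8 in wild type.

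Vegfa is also a classic target of the hypoxia-inducible factors. Of 15 other tested genes of that response 8 were higher and 1 was lower, or 4 and 1 under quantile and under cyclic loess normalization. The higher share was 53.3%, beside 24.1% of all tested probes. Under these normalizations 20.2% and 19.7% of all tested probes were higher, so that 4 of 15 genes is near the share over the array. Without knockout array 1 there were 10 higher and 2 lower. Bnip3, a mitophagy receptor gene, rose by 1.31 on the log2 scale (adjusted p = 6.12e-07, limma) and the hexokinase gene Hk2 by 0.82 (adjusted p = 6.42e-06). The glucose transporter gene Slc2a1 had a log2 change of 0.69 (adjusted p = 0.0236), which passed neither under these normalizations nor in 4 other settings (adjusted p up to 0.184). Adm, the adrenomedullin gene, was the member of the list that fell, by 1.64 (adjusted p = 0.000972). Hif1a, chosen after its values were seen, read 12.5, 2.86 and 3.95 in the knockout and 6.40, 7.98 and 8.64 in wild type, with knockout array 1 the highest of the 6 and the others the lowest. It did not pass (log2 change -0.55, adjusted p = 0.288).

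The genes of the glomerular basement membrane, on which podocytes rest, were lower or did not pass. Of 15 tested, 8 were lower and none higher in limma (2 were higher at an unadjusted p under 0.05). The lower ones are 53.3% of those tested, beside 17.2% of all tested probes, and the median log2 change of the 15 was -0.37. Without knockout array 1, and without knockout array 2, 1 gene of the list was higher. Some markers of other cell types were lower too, in lists that were mixed. For endothelium 4 of 7 tested were lower and 1, Kdr, was higher (median log2 change of the 7 -0.43). For coelomic epithelium 3 of 7 were lower and the other tested markers had log2 changes above 0 without passing (median 0.07). Over all tested probes 17.2% were lower and 24.1% higher. Their part in the basement membrane values was not tested. Col4a1, the collagen IV chain of embryonic basement membranes, read 4.91, 5.19 and 5.32 in the knockout, against 9.10, 10.2 and 10.3 in wild type (log2 change -0.94, adjusted p = 4.71e-06, limma). Cd151, which encodes a tetraspanin partner of laminin-binding integrins, fell by 1.07 (adjusted p = 1.39e-05). The laminin genes Lamc1 and Lama1 fell by 0.66 and 0.60 (adjusted p = 0.000261 and 0.000466). Some chains of the mature glomerular membrane were not called. Col4a4, Col4a5 and Lamb2 did not pass, with log2 changes of 0.30, -0.28 and 0.05, and Col4a3 was too dim to test. These chains were singled out after their values were seen, and no test compared the embryonic with the mature chains. The laminin gene Lama5 had no probe. The probes of the integrin gene Itgb1 disagreed, the brightest not passing at 0.27 (adjusted p = 0.0832) and the second lower at -0.74 (adjusted p = 0.0053).

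Of 11 tested genes of mesangial cells and capillary recruitment, 3 were lower and 1 was higher. These are 27.3% and 9.09%, beside 17.2% lower and 24.1% higher of all tested probes. Without knockout array 1 there were 5 lower and without knockout array 2 there were 2 higher. Cxcl12, a chemokine gene that podocytes express, read 1.42, 1.79 and 1.86 in the knockout and 4.36, 4.65 and 4.25 in wild type, a log2 change of -1.40 (adjusted p = 2.64e-06, limma). Des, the desmin gene, fell by 0.85 and the angiopoietin receptor gene Tek by 0.72 (adjusted p = 8.45e-05 and 0.00011). Pdgfra, a receptor gene of mesenchyme, rose by 0.66 (adjusted p = 4.0e-05). The call ended only when its probes were averaged. Its second probe was too dim to test, with means of 0.117 in the knockout and 0.102 in wild type. Of 7 tested genes of nephron tubule and nephric duct, 2 were higher and 2 lower, 28.6% each, beside 24.1% and 17.2% of all tested probes. Gata3 and Ret, genes of the nephric duct, were higher by log2 changes of 0.79 and 0.41, and Cdh1 and Emx2 were lower, at -0.91 and -0.63, all 4 with adjusted p of 0.0045 or less.

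**Figure D3:**
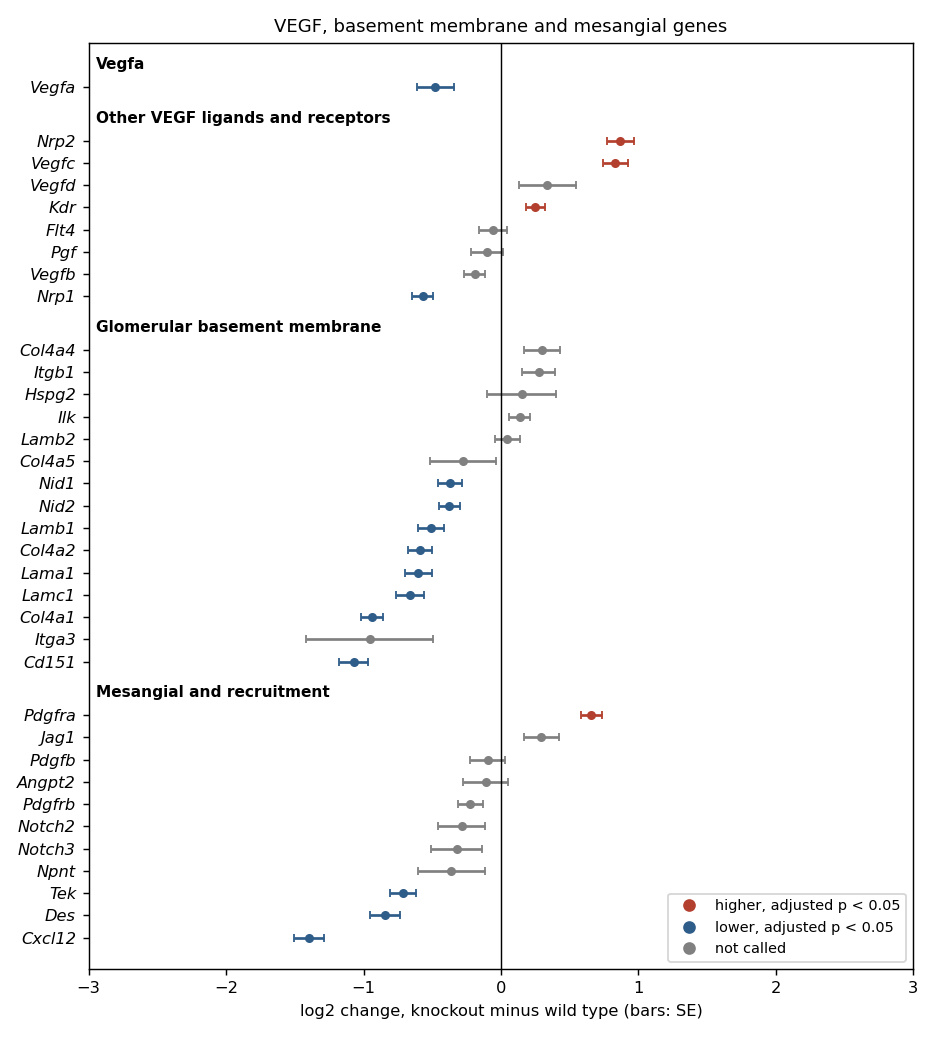
Log2 change (knockout minus wild type, bars SE) of Vegfa and of listed genes of the VEGF system, the glomerular basement membrane and the mesangium, 1 brightest probe per gene. Red marks genes called higher, blue genes called lower at adjusted p under 0.05, grey genes not called. All 8 called basement membrane genes lie left of 0, from -0.37 for Nid1 to -1.07 for Cd151, while Vegfc, Nrp2 and Kdr lie right of 0.

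The name podocyte genes describes where these genes are known from, not a cell type seen in the ridge. Of 7 podocyte markers, 4 had a probe: Nphs1 and Podxl were too dim to test, Synpo did not pass, and Wt1 is the deleted gene. Of 7 tested markers of coelomic epithelium 3 were lower and none higher (limma, 1 higher at an unadjusted p under 0.05), and of 5 tested liver markers 1 was lower and 1 higher. Over all tested probes 17.2% were lower and 24.1% higher, so the liver counts are near the share over the array. The summed intensity of the liver markers was nevertheless 6.21 to 7.02 in the knockout and 3.79 to 4.20 in wild type. The higher liver marker was Ttr, with a log2 change of 2.68 (adjusted p = 2.03e-07, limma), and the lower one Apoa1, at -0.43. Markers of red blood cells, of which 4 were tested and none passed in limma (0 also at an unadjusted p under 0.05), had a summed intensity of 1447 to 1553 in the knockout and 1456 to 1500 in wild type.

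**Figure D4:**
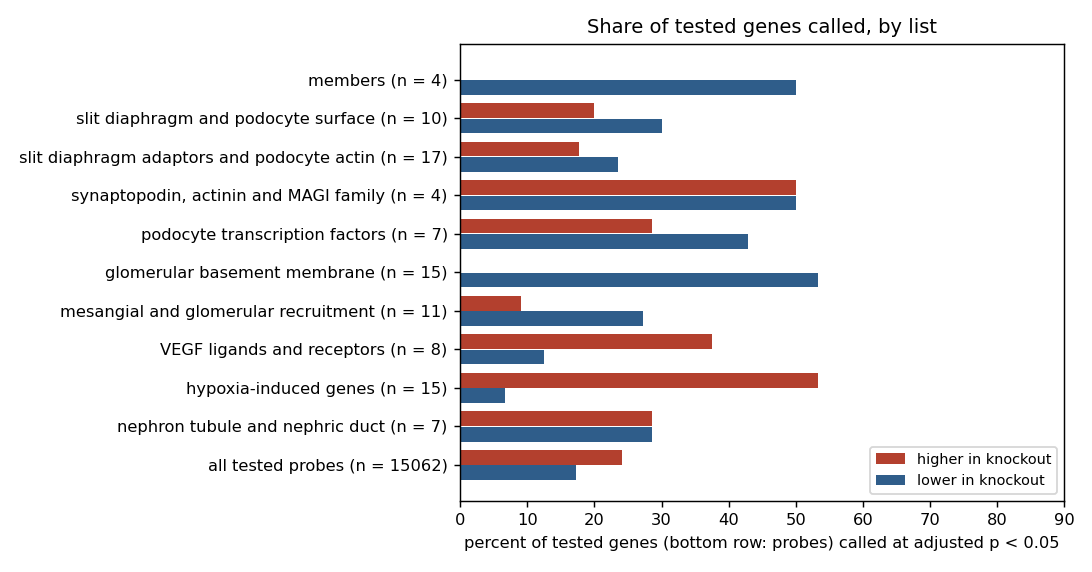
Percent of tested genes called higher (red) or lower (blue) in the knockout at adjusted p under 0.05, for the members, for each gene list and, in the bottom row, for all tested probes, with the number tested beside each name. The lower share is 53.3% for the basement membrane list and 50% for the members, and the higher share is 53.3% for the hypoxia list, beside 24.1% higher and 17.2% lower over all tested probes.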

How the data were processed

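Biotin-labelled total RNA was hybridised to CodeLink Mouse 20k arrays, per the labels. The authors deposited 1 linear intensity per probe and array, with column medians of 0.956 to 0.966; their software and background correction are not stated in these sources. Intensities under 0.0811 (the 5th percentile of positive values) were raised to it before log2, and arrays were not normalized further. Probes were tested where each genotype had at least 2 values and the mean log2 was above the 25th percentile over probes (an intensity of 0.217). Knockout and wild type were compared in limma 3.58.1 under R 4.3.3, with an intensity trend and no covariate, and p-values were adjusted by Benjamini-Hochberg over 15062 probes, two-sided. The fit was tested on simulated data.

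GEO's annotation of the platform, which may be outdated, gave 1 symbol for 15120 probes, several for 38 and none for 5131. Symbols were updated through Entrez identifiers and RefSeq, and each listed gene was represented by its brightest probe. The text names up to 4 called genes per list by size of change, and all genes of the VEGF system and of the members' relatives. The members and lists were chosen with earlier results of these data known, and no set test was run. The alternatives were other normalizations, floors, filters and variance priors, a replicate block, leaving out each array and, for the lists, the mean of all probes of a gene.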

Additional observations from a re-analysis of the deposited data

How the results depend on the processing

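Actn4 kept its direction and its call in all 17 alternatives (adjusted p 0.000457 to 0.00871), and Synpo stayed above 0 and uncalled in all 17. Vegfa stayed negative in all 17 but lost its call in 5. Without an intensity trend its log2 change was -0.48 (adjusted p = 0.0755) and 1 member was called in place of 2. Leaving out each array in turn gave Vegfa changes of -0.67 to -0.35 and 1 to 2 called members. For the uncalled Kirrel it gave -0.51 to 0.13, positive without knockout array 3, and it was too dim for the filter at the median probe. Nphs1, untested, had a log2 change of -1.19 under cyclic loess normalization, -0.33 with the floor at the 10th percentile and -0.098 for log2 of the value plus 1. The last 2 settings change how values near the floor are treated by construction. Hypoxia genes called were 9, or 5 under quantile and 5 under cyclic loess normalization. Actin and adaptor genes called were 7, or 6 to 11 leaving out each array. The other 7 list counts stayed within 1.5 times of their value in all 18 alternatives. Deviations of same-numbered arrays from their group means correlated at 0.000489, -0.0208 and -0.00572, and those of differently numbered arrays at -0.0205 to 0.0253. No effect shared by same-numbered arrays was thus seen, but these values cannot tell whether such arrays were processed together. With the array number as a replicate block Actn4 had adjusted p = 0.00202 and Vegfa adjusted p = 0.00794, and both stayed called. The number of arrays and the missing detection flags limit what can be said of dim genes such as Nphs1.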
